A study of Mus musculus with 3 samples.

Results

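Proteoglycans are core proteins that carry long sulfated sugar chains. Lumican belongs to the small leucine-rich family of proteoglycans, which is not among the genes chosen here. This account covers 10 genes: the lecticans Vcan and Acan, the basement membrane proteoglycan Hspg2 (perlecan), the syndecans Sdc1, Sdc2, Sdc3 and Sdc4, the glypican Gpc1, the intracellular proteoglycan Srgn (serglycin) and the hyaluronan synthase Has2. They were chosen by name, as all probes whose platform gene symbol is a member of this family list, and are 10 of 19057 genes with a named probe. Together they have 21 probes, of which 14 exceeded background on some array and 11 on all 3.

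The LLC/luc line is a luciferase-expressing Lewis lung carcinoma line of the C57BL/6 mouse. RNA was hybridised from the parental line (P), from LLC/luc BM 1st cells, grown out of lesions in the tibia after an intracardiac injection of parental cells, and from LLC/luc BM 2nd cells, obtained in the same way after BM 1st cells had been injected again. All 3 were cultured in DMEM with serum, and each sub-line is 1 culture of tumour-bearing bone. There is 1 Illumina bead array per cell line, so no difference can be set against a spread between replicates and p-values are left out. This small number of arrays sets the precision. The labels give 1 cell type, osteotropic, for all 3, although the parental line had not been through bone. The deposited values are linear intensities without background subtraction, and the background level of an array was the 95th percentile of the intensities of 1504 probes for olfactory and vomeronasal receptors, at 109, 110 and 107 on the parental, BM 1st and BM 2nd arrays. A gene was read from its brightest probe, was compared if either array of the pair was above background, and was counted as higher or lower past a log2 ratio of 1 or -1, a 2-fold difference. Dim genes keep that background in their values, which pulls their ratios towards 0.

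Syndecans span the membrane, and glypicans are held to it by a lipid anchor; both carry mainly heparan sulfate, which binds growth factors, chemokines and matrix proteins and presents them to signalling receptors. Lecticans carry chondroitin sulfate and bind hyaluronan, a sugar polymer without a core protein that hyaluronan synthases extrude at the cell surface. Perlecan joins laminin and collagen in basement membranes, and serglycin packs proteases and chemokines in the granules of blood cells.

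None of the 10 genes passed the 2-fold threshold in any of the 3 comparisons. In BM 2nd/P, 7 members were compared and 0 were higher and 0 lower, beside 1.83% of 10579 genes higher and 1.53% lower. In BM 1st/P, 8 were compared and 0 were higher and 0 lower, beside 2.04% and 1.79% of 10377 genes. In BM 2nd/BM 1st, 8 were compared and 0 were higher and 0 lower, beside 3.01% and 1.78% of 10562 genes. With so few members a count of 0 is near these background shares. With each array centred on the median of its own probes above background the members' counts were also 0, while 72.9% rather than 54.5% of the genes past the threshold in BM 2nd/P were higher, and 80.2% rather than 62.8% in BM 2nd/BM 1st. Centred on the median ratio of probes above background on all 3 arrays, those shares were 56.1% and 66.5%, and the members' counts 0. The arrays share nearly the same sorted values, so centring each on its own probes shifts ratios through their unequal background levels. Lum, the small leucine-rich proteoglycan gene the study followed, had a log2 BM 2nd/P ratio of 4.95 on the same arrays, whereas the members lay between -0.33 (Sdc1) and 0.83 (Sdc2). Across all genes compared the robust SD of that ratio was 0.30.

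**Figure D1:**
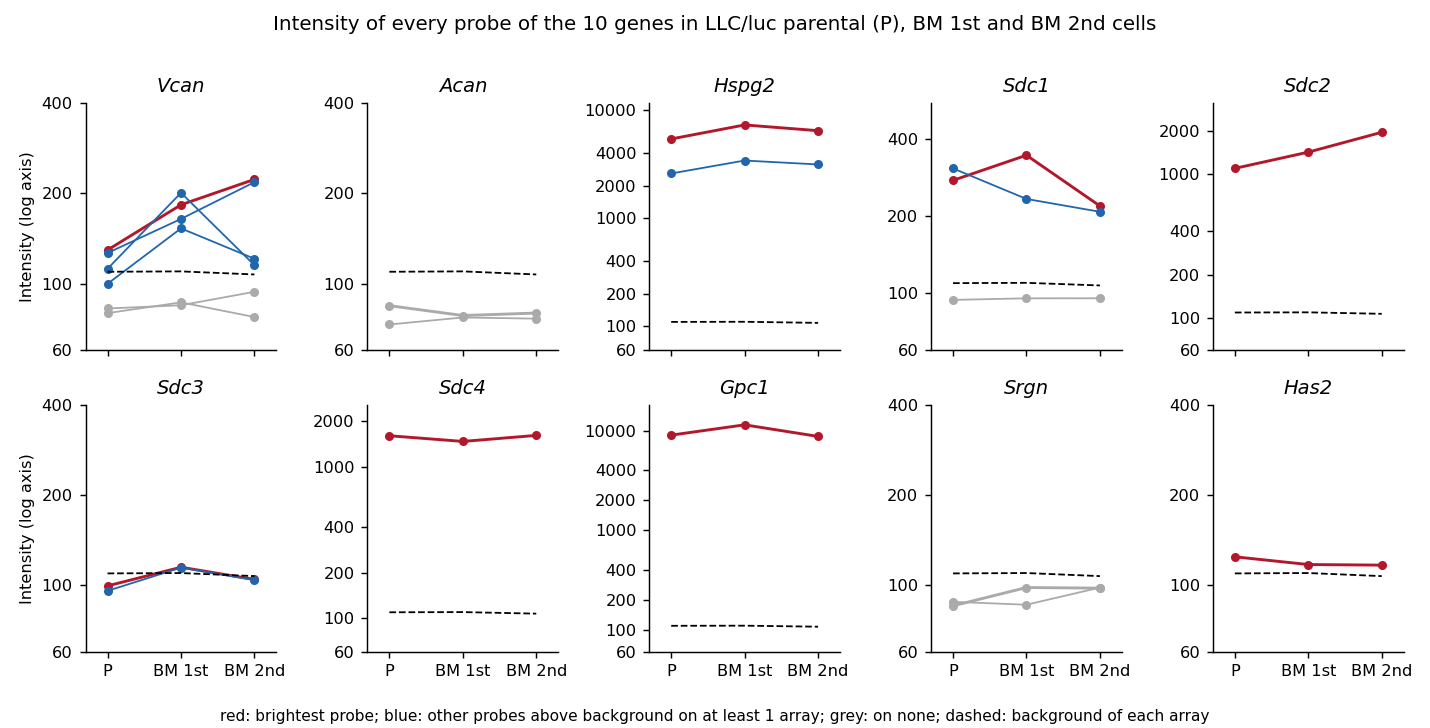
Intensity on a log axis (vertical) of every probe of the 10 genes in LLC/luc parental (P), BM 1st and BM 2nd cells (horizontal), 1 array each, with the brightest probe in red, other probes above background on at least 1 array in blue, probes above it on no array in grey and the background of each array dashed. Sdc2 is brighter at each step, from 1096 to 1421 to 1952, the 4 Vcan probes above background split into 2 shapes, and both Acan and both Srgn probes lie under the dashed line.

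Promoter sequences for 7 of the 10 genes, in 8 windows, were taken from RefSeq (GRCm38.p6) as the 250 bases before the start that its promoter table uses, for Vcan, Acan, Hspg2, Sdc1, Sdc3, Sdc4 and Srgn; Sdc2, Gpc1 and Has2 had no match. That start is not always the outer end of the annotated gene: the Vcan window lies inside the gene's span and the Hspg2 window reaches into it. They are shown for a gene bright on every array, for the lectican with the larger ratios and for a gene at background, with motif matches on either strand in capitals. The GC box was searched as GGGCGG. The TATA box was searched as TATAAA. Hspg2 lies at chr4:137468553-137468802 on the plus strand, Vcan at chr13:89742513-89742762 on the minus strand and Srgn at chr10:62527446-62527695 on the minus strand, each printed 5′ to 3′ along the gene.
Hspg2: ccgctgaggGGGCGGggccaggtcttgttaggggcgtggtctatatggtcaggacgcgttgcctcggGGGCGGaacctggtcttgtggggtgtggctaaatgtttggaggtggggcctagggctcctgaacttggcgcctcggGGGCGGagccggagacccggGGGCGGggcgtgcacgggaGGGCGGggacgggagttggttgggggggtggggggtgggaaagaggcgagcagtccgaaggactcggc
Vcan: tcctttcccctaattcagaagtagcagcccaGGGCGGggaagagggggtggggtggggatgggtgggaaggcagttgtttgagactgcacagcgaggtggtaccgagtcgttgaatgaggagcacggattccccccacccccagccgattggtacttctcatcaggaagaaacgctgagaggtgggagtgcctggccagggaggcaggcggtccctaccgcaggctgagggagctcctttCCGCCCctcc
Srgn: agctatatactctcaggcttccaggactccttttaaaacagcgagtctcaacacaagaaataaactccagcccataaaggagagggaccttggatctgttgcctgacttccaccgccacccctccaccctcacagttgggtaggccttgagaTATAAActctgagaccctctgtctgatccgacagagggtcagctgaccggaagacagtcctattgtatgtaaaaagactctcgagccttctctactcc
The Hspg2 window holds 5 GC boxes and the Vcan window 2, and neither holds a TATA box, while the Srgn window shown, the first of its 2, holds 1 TATA box and 0 GC boxes. Acan, which was also at background, has 3 GC boxes. Among the 8 windows 6 hold a GC box and 1 a TATA box. Among all 32851 RefSeq promoter windows of the same length, 32.7% hold a GC box and 12.4% a TATA box. A match is a description of the letters and says nothing of whether a factor binds.

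Vcan encodes versican, a large hyaluronan-binding proteoglycan of loose connective tissue and of tumour stroma. Its brightest probe (ILMN_2669627) had intensities of 129, 183 and 222 on the parental, BM 1st and BM 2nd arrays, and the next (ILMN_1247540) had 126, 164 and 218. On both probes BM 2nd cells were the brightest array and parental cells the dimmest, with log2 BM 2nd/P ratios of 0.78 and 0.78. A further probe (ILMN_2655336) had intensities of 112, 201 and 115, and the dimmest of the 4 above background (ILMN_2865704) had 99.8, 153 and 121. On these BM 1st cells were the brightest array, and the log2 BM 2nd/P ratios were 0.04 and 0.28. In BM 1st/P all 4 probes had positive log2 ratios, from 0.38 to 0.84, whereas in BM 2nd/BM 1st they ran from -0.80 to 0.41, and the sign turns with the probe. Versican is made in several splice forms; the position of each probe on the transcript was not used here, so the forms each one reads are unknown. The remaining 2 Vcan probes were above background on no array.

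The log2 ratio of the brightest Vcan probe is the member value that moves most with the background. With the receptor median of each array subtracted it was 1.83 in BM 2nd/P and 1.31 in BM 1st/P, both past the threshold. The share of all genes counted as higher then became 5.83% in BM 2nd/P and 5.77% in BM 1st/P. Averaged over the 4 probes above background it was 0.47 in BM 2nd/P. As deposited, 6.48% of the genes compared had an absolute log2 BM 2nd/P ratio at least as large as the 0.78 of its brightest probe.

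Acan, the gene of aggrecan, the main proteoglycan of cartilage, was above background on no array. Its brighter probe had intensities of 84.4, 78.2 and 79.8 in parental, BM 1st and BM 2nd cells and the other probe 73.1, 77.1 and 76.4, so no fold is given. Of 9 chondrocyte markers 3, 2 and 3 were above background on the parental, BM 1st and BM 2nd arrays. Of all 19057 genes, 9101 were above background on both the parental and BM 2nd arrays and 10579 on at least 1 of them. The summed intensities of the 9 markers were 2963, 7532 and 4878. Most of each sum is Sox9, a transcription factor of the cartilage lineage that also acts in epithelia, at 2160, 6746 and 4010. Sox9 was past the threshold in BM 1st/P at a log2 ratio of 1.64. Col2a1, the main cartilage collagen gene, had intensities of 106, 91.6 and 196 on its brightest probe, of which only the last was above background, while another of its 3 probes was above it in parental cells too, at 115. On the brightest probe it was past the threshold in BM 2nd/BM 1st at a measured log2 ratio of 1.10, or at least 1.79-fold higher as a bound, with 0.46 and 0.39 on its other probes. The part of other cells in these values was not tested.

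Hspg2 was read by 2 probes that gave the same picture. The brighter had intensities of 5391, 7269 and 6431 on the parental, BM 1st and BM 2nd arrays, and the other had 2586, 3405 and 3133. Parental cells were the dimmest and BM 1st cells the brightest array on both probes. The log2 BM 1st/P ratios were 0.43 and 0.40 and the log2 BM 2nd/P ratios 0.25 and 0.28. Both probes read the same RNA, so they say nothing of the spread between cultures. Of all genes compared, 22.1% had an absolute log2 BM 1st/P ratio at least as large as 0.43.

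Among the syndecans, Sdc2, which organises matrix assembly and is the main syndecan of mesenchymal cells, had the largest log2 BM 2nd/P ratio of the 7 members compared as deposited; with the background subtracted it was 0.89, under the 1.83 of Vcan. Its probe had intensities of 1096, 1421 and 1952 on the parental, BM 1st and BM 2nd arrays. BM 2nd cells were brightest and parental cells dimmest, 1.78-fold apart, with log2 ratios of 0.37 in BM 1st/P, 0.46 in BM 2nd/BM 1st and 0.83 in BM 2nd/P. The last of these is the sum of the other two by construction. Of the genes compared, 5.55% had an absolute log2 BM 2nd/P ratio at least as large. Sdc2 has a single probe, well above background, and its log2 BM 2nd/P ratio was 0.97 with each array centred on the median of its own probes above background.

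Sdc1, the syndecan of epithelia and plasma cells, had 2 probes above background that disagreed on BM 1st cells. The brighter probe had intensities of 275, 345 and 219 on the parental, BM 1st and BM 2nd arrays, and the other had 307, 233 and 208. BM 2nd cells were the dimmest array on both, with log2 BM 2nd/P ratios of -0.33 and -0.56. BM 1st cells were the brightest array on the first probe and lay between the others on the second, with log2 BM 1st/P ratios of 0.33 and -0.40, so the sign of that ratio depends on the probe. The log2 BM 2nd/BM 1st ratios were -0.66 and -0.17, and 12.4% of genes had an absolute ratio at least as large as the first. The remaining Sdc1 probe was above background on no array.

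Sdc4, a syndecan of focal adhesions, stayed close in intensity, at 1608, 1475 and 1616 on the parental, BM 1st and BM 2nd arrays. Its log2 BM 2nd/P ratio was 0.0072, and 97.9% of the genes compared had an absolute ratio at least as large. Sdc3, a syndecan of nerve and muscle, was above background in BM 1st cells only, with intensities of 99.5, 115 and 105 on its brighter probe and 95.8, 114 and 104.0 on the other. BM 1st cells were at least 1.05-fold above parental cells, a bound that holds only for this background level. With the background at the 99th percentile of the receptor probes Sdc3 was above it on no array and was not compared.

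Gpc1, the glypican found on many carcinoma cells, was far above background, at 9025, 11453 and 8761 on the parental, BM 1st and BM 2nd arrays. BM 1st cells were the brightest, with a log2 BM 1st/P ratio of 0.34 and a log2 BM 2nd/BM 1st ratio of -0.39. Its log2 BM 2nd/P ratio was -0.04, or 0.10 with each array centred on its own probes above background, so parental and BM 2nd cells have no settled order. Has2, which makes long hyaluronan chains, lay just above background at 124, 117 and 117. Its log2 BM 2nd/P ratio was -0.09, or -0.08 under the first of these centrings and 0.05 under the second. BM 1st and BM 2nd cells differed by -0.0066, or 0.03 under the first and 0.15 under the second.

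Srgn was above background on no array, with intensities of 85.4, 98.2 and 97.8 on one probe and 88.0, 86.1 and 98.2 on the other, so no fold is given. Serglycin is abundant in leukocytes, and other leukocyte markers were seen: of 11 with a probe 2, 9 and 6 were above background on the parental, BM 1st and BM 2nd arrays. Of all 19057 genes, 8833 were above background on both the parental and BM 1st arrays and 10377 on at least 1 of them. The summed intensity of the 11 markers was 1106, 2642 and 1559. Lyz2, a lysozyme gene of myeloid cells, had intensities of 79.5, 1078 and 365, Laptm5 of 90.1, 367 and 184 and Fcer1g of 95.4, 255 and 128. Lyz2, Laptm5 and Fcer1g make up most of the BM 1st sum. Itgam and Tyrobp were above background on no array and Ptprc in BM 1st cells only. In BM 1st cells Ptprc, Itgb2, Spi1 and Csf1r lay near background, at 111, 115, 121 and 128. In parental cells they had 102, 101, 105 and 115. The part of leukocytes in the 3 lines' values was not tested.

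**Figure D2:**
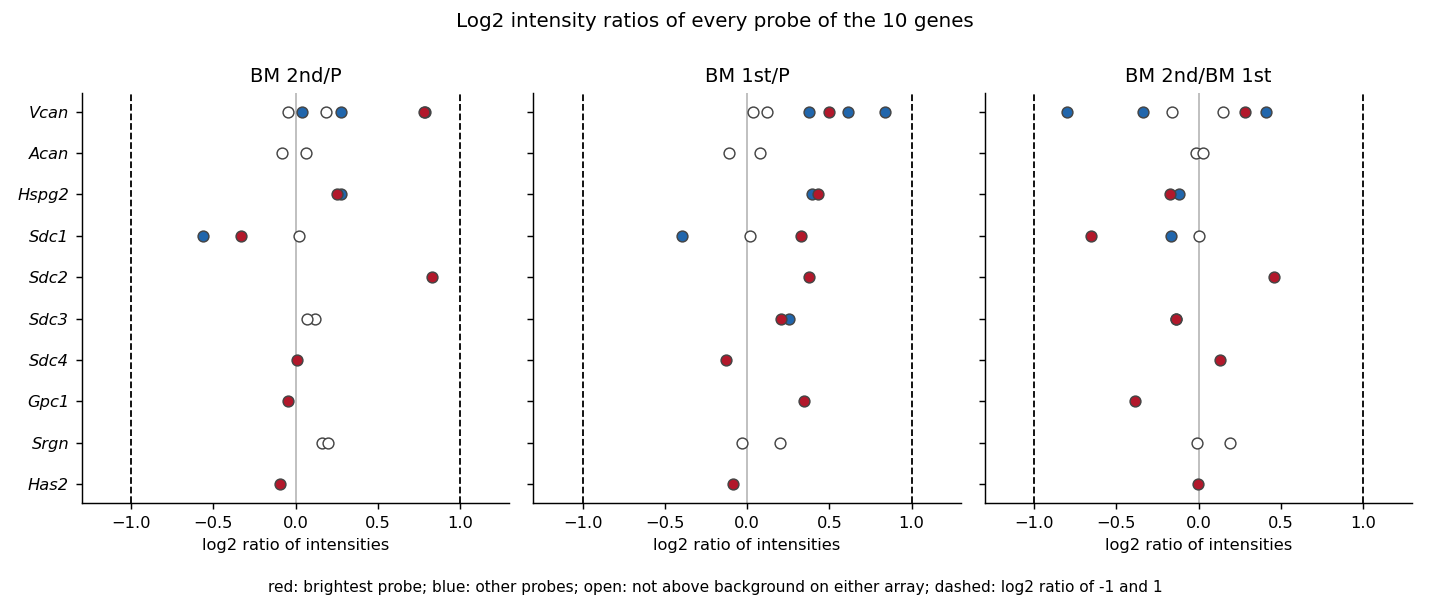
Log2 ratio of intensities (horizontal) for every probe of the 10 genes (vertical) in BM 2nd/P, BM 1st/P and BM 2nd/BM 1st, 1 array per cell line, with the brightest probe in red, other probes in blue and probes above background on neither array open. No filled point passes the dashed lines at -1 and 1. Sdc2 at 0.83 and the 2 brightest Vcan probes, both at 0.78, come nearest in BM 2nd/P. The probes of Vcan in BM 2nd/BM 1st and of Sdc1 in BM 1st/P lie on both sides of 0.

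Read by the brightest probe, the 8 members above background on any array did not share a course. BM 1st cells were the brightest array for Hspg2, Sdc1, Sdc3 and Gpc1, BM 2nd cells for Vcan, Sdc2 and Sdc4, and parental cells for Has2. With each array centred on its own probes above background BM 2nd cells were brightest for Has2 and Sdc3 too. They were not when centred on the probes above background on all 3 arrays. Averaged over the probes above background the brightest became BM 1st cells for Vcan and parental cells for Sdc1. The median log2 ratio of the members compared was 0.33 in BM 1st/P, 0.0072 in BM 2nd/P and -0.07 in BM 2nd/BM 1st, beside -0.0079, 0.0071 and -0.01 over all genes compared. In BM 1st/P 6 of the 8 had ratios above 0, from Sdc3 at 0.21 to Vcan at 0.50, and Sdc4 and Has2 lay at -0.13 and -0.09. Of all genes compared, whose median was -0.0079, fewer lay above 0 than below it. Sdc1 is 1 of the 6, at 0.33, but its other probe above background gave -0.40, and Sdc3 lay near background. The comparisons share arrays, so these values are not independent of each other.

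Fibroblasts and marrow stroma also express Vcan, Sdc2 and Hspg2, and some of their markers were past the threshold on the same arrays. Of 13 such markers, all with a probe, 8, 8 and 9 were above background on the parental, BM 1st and BM 2nd arrays. Of all 19057 genes, 9101 were above background on both the parental and BM 2nd arrays and 10579 on at least 1 of them. The summed intensities of the 13 markers were 4001, 11117 and 19170. Most of the last 2 sums is Lum, at 198, 1742 and 6133, and Dcn, at 1027, 6259 and 6174. In BM 1st/P 4 of 9 compared were higher and 1 lower, which was Fbln1, with intensities of 544, 271 and 601 and a log2 ratio of -1.01, and Col3a1 had -0.41. In BM 2nd/P 5 of 10 compared were higher and 0 lower: Lum, Dpt and Dcn, which the study named from these arrays, Pdgfra at 2.05 on the brighter of its probes and 0.19 on the other, and Col1a1, not above background in parental cells and at least 3.76-fold higher. Col1a2, Postn, Pdgfrb and Thy1 did not show such values: Col1a2 had intensities of 110, 107 and 104 and the other 3 were above background on no array. Nor did Cxcl12, above background on all 3 arrays at 125, 128 and 120, or Lepr, at 104, 107 and 109. In bulk RNA, more cells of a type and more RNA per cell cannot be told apart. The part of stromal cells in the Vcan and Sdc2 values was not tested. Of the lung carcinoma and epithelial markers Krt8 and Krt18 were clearly above background on all arrays, at 1381, 997 and 2509 and at 2025, 2280 and 1274, and Epcam on none. Of the 6 endothelial markers, which summed to 614, 616 and 616, 2, 1 and 1 were above background on the parental, BM 1st and BM 2nd arrays. These were Kdr, at 111, 126 and 126, and in parental cells Tek, at 115. Pecam1, Cdh5, Vwf and Emcn were above background on no array.

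The chains on these core proteins are built by enzymes and transporters, and 6 further lists covered those genes, related core proteins, hyaluronan turnover, and proteases and partners. Of 115 genes with a probe, 61 were compared in BM 2nd/P and 6 were higher and 1 lower, or 9.84% higher and 1.64% lower, beside 1.83% and 1.53% of all genes compared. In BM 1st/P 1 of 60 was higher and 1 lower, or 1.67% each, beside 2.04% and 1.79% of all genes. In BM 2nd/BM 1st 1 of 63 was higher and 2 were lower, or 1.59% and 3.17%, beside 3.01% and 1.78%. The counts of single lists given next are in BM 2nd/P and stand beside the same 1.83% and 1.53%. The 6 higher genes come from 5 of the lists. Those lists were chosen with earlier results of these data known. Nrp1, among the 6, had been named by the study from these arrays, so the 9.84% is a description and no test. Averaged over the probes above background, 3 were higher in BM 2nd/P, Nrp1, Ext1 and Adamts4, and none was lower. That is 4.92% higher, beside 1.36% of all genes higher and 1.14% lower under that setting. With each array centred on its own probes above background 8 were higher and none was lower, or 13.1% higher, beside 2.69% and 1.00%. Centred on the probes above background on all 3 arrays, 6 were higher and 1 lower, beside 1.91% and 1.49%.

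Heparan sulfate is elongated by EXT enzymes and then modified. Ext1, a subunit of the polymerase, had intensities of 1470, 2096 and 3062 on the parental, BM 1st and BM 2nd arrays, 1.06 apart in log2 BM 2nd/P. Its single probe was brighter at each step, as that of Sdc2 was. Glce, the epimerase that turns glucuronic into iduronic acid, had intensities of 730, 673 and 350. It was lower in BM 2nd/P, at -1.06, with -0.45 on its other probe above background. Of the 14 genes of this list compared, 1 was higher and 1 lower, with a median of 0.12. Extl3, which starts heparan sulfate chains, had a log2 BM 2nd/P ratio of 0.12.

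The linker that joins both kinds of chain to the core is started by xylose and trimmed by a phosphatase. Pxylp1, the phosphatase of that xylose, had intensities of 566, 929 and 1372. Its log2 ratio was 1.28 in BM 2nd/P, but -0.14 on its other probe above background, which lay near that level. Slc35b3, which carries the sulfate donor into the Golgi, had intensities of 1165, 1381 and 2397 and a ratio of 1.04, with 0.42 as the lowest of its 3 probes. Its relative Slc35b2 had a ratio of -0.02, and Papss1, which makes that donor, had one of 0.08. Of 11 genes of this list compared 2 were higher and 0 lower, with a median of 0.08. Of 9 genes of chondroitin and dermatan sulfate synthesis compared 0 were higher and 0 lower, with a median of 0.18. Csgalnact1, which starts chondroitin chains, had a ratio of 0.20, and Chst15, a sulfotransferase, had ratios of 0.94 and 0.71 on its 2 probes.

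Of 8 hyaluronan genes compared in BM 2nd/P 1 was higher and 0 lower, with a median of 0.05. It was Cemip2, a surface protein linked to hyaluronan breakdown, with intensities of 401, 869 and 824. Its log2 ratios were 1.04 in BM 2nd/P and 1.12 in BM 1st/P, and the lowest of its 3 probes above background gave 0.51 and 0.55. The hyaluronidase gene Hyal2 had a BM 2nd/P ratio of 0.03 and Hexa, a lysosomal hexosaminidase gene, one of 0.0030. Cd44, the main hyaluronan receptor and named here after its values were seen, had intensities of 2838, 2658 and 2325 on its brightest probe, or -0.29 in log2 BM 2nd/P.

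Of 7 other core proteins compared in BM 2nd/P 1 was higher and 0 lower, with a median of -0.0026. It was Nrp1, a receptor that can carry a sugar chain, with log2 ratios of 1.59 and 1.33 on its 2 probes above background. The study had named it from these arrays, with the value of the second probe. Agrn, the basement membrane proteoglycan agrin, had intensities of 2539, 4651 and 1912 and was lower in BM 2nd/BM 1st at a log2 ratio of -1.28. Col18a1, the other basement membrane proteoglycan of the list, had intensities of 12188, 14426 and 10464 and a log2 BM 2nd/BM 1st ratio of -0.46. For Agrn, Col18a1 and Hspg2, BM 1st cells were the brightest array on the brightest probe.

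Of 12 protease and partner genes compared in BM 2nd/P 1 was higher and 0 lower, with a median of -0.12. Adamts4, which cleaves aggrecan and versican, was not above background in parental cells, at 96.7 against 167 and 226 after the first and second selection, which puts BM 2nd cells at least 2.06-fold higher. Adamts9, another versican-cleaving protease, had intensities of 422, 153 and 349, with log2 ratios of -1.46 in BM 1st/P and 1.19 in BM 2nd/BM 1st, but -0.12 and 0.07 on its other probe, which lay near background. Sdcbp2, a relative of the syndecan tail binder syntenin, was lower in BM 2nd/BM 1st at -1.33, with -0.49 on its other probe above background. Sdcbp, the gene of syntenin itself, had a BM 2nd/P ratio of -0.34, and Mmp14, a membrane protease that sheds syndecans, one of -0.06.

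**Figure D3:**
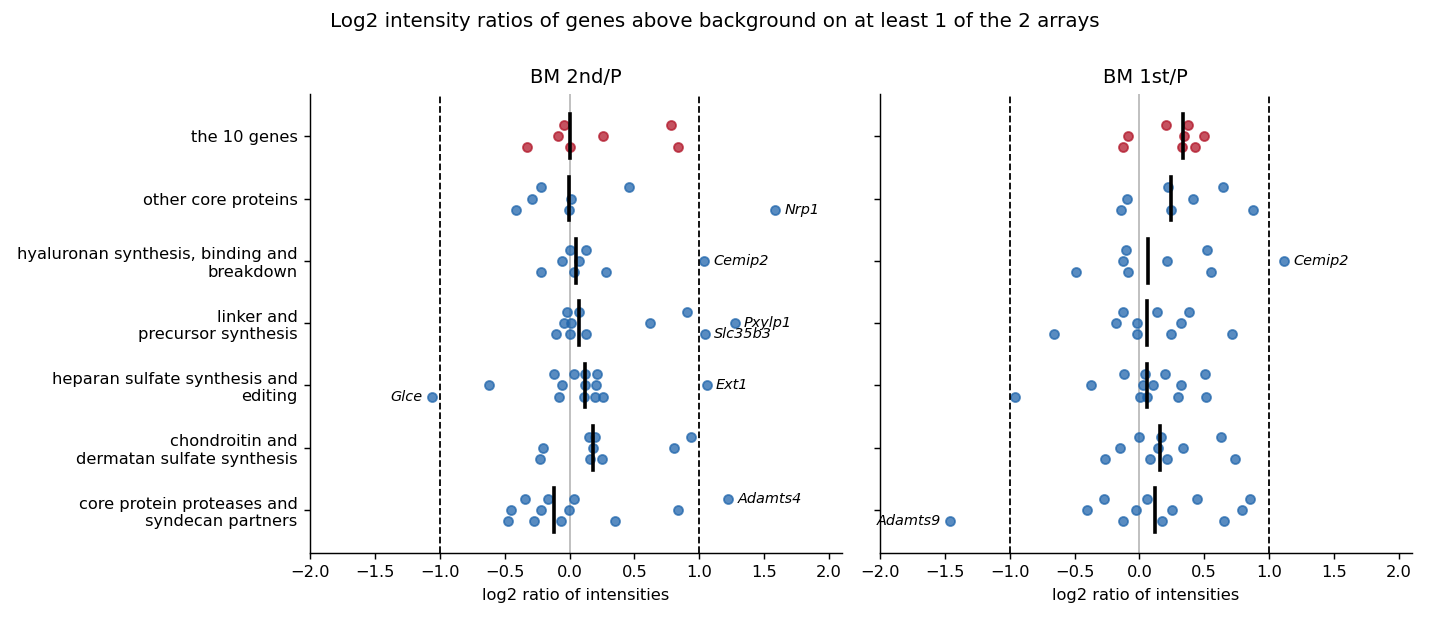
Log2 ratio of intensities (horizontal) in BM 2nd/P and BM 1st/P for genes that exceeded background on either array, 1 point per gene read from its brightest probe, by gene list (vertical), with list medians as black bars and dashed lines at -1 and 1. The members compared, 7 in BM 2nd/P and 8 in BM 1st/P, are in red and lie within the dashed lines, with medians of 0.0072 and 0.33, and the named genes lie outside them, Nrp1 farthest at 1.59.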

How the data were processed

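RNA of 3 cell lines was hybridised to Illumina mouse arrays, 1 array each. Per the labels, GenomeStudio 2011.1 was used; its normalization method was not given in the sources used here. Intensity values that the authors deposited cover 45281 probes. Their sorted values differ by at most 0.274 between arrays, so they had been quantile normalized, and the lowest is 60.2, so background had not been subtracted.

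Log2 ratios were taken in Python 3.11.15 (pandas 2.3.3, numpy 2.4.6) and drawn with matplotlib 3.10.9. The platform annotation pairs 34885 probes with 1 gene, 18 with several, which were not named, and 10378 with none. Symbols were updated through Entrez identifiers with the RefSeq table of GRCm38.p6. Over 3154 genes with several probes above background throughout, probes of a gene had a median SD of 0.14 in log2 BM 2nd/P.

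The members and the 11 other gene lists (168 genes, 159 with a probe) were chosen with earlier results of these data known. Named are all members, from each list up to 5 genes past the threshold by size and the 2 of highest mean intensity, and Lum; Cd44 and marker genes beyond that rule were picked with values in view. Counting was tested on simulated data, with changes larger than the threshold put into genes well above background. That says nothing of calls near background. No test across replicates was possible. Alternatives varied the background filter, level and subtraction, the centring, the probe and the threshold.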

Additional observations from a re-analysis of the deposited data

How the results depend on the processing

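The count of members past the threshold was 0 in all 3 comparisons as reported. It was also 0 without the background filter, with genes above background on both arrays, with the background at the 99th percentile of the receptor probes, with either centring, with either mean over probes and at a threshold of 1.5. With the background subtracted 1 member was higher in BM 2nd/P and 1 in BM 1st/P, Vcan in both, and 0 passed in BM 2nd/BM 1st. Of all genes, 5.83% were higher in BM 2nd/P and 5.77% in BM 1st/P under that setting. At a threshold of 0.5 it was 2 in BM 2nd/P (Vcan and Sdc2), 1 in BM 1st/P (Vcan) and 1 in BM 2nd/BM 1st (Sdc1, lower), beside 9.03% of all genes higher in BM 2nd/P, 8.45% higher in BM 1st/P and 9.46% lower in BM 2nd/BM 1st at that threshold. Centring each array on its own probes above background, chosen after seeing the data, added 0.14 to every log2 ratio in BM 2nd/P and 0.16 in BM 2nd/BM 1st. It turned the split of all genes in BM 2nd/P from 194 higher and 162 lower to 285 and 106, and in BM 2nd/BM 1st from 318 and 188 to 465 and 115. Centring on the median ratio of probes above background on all 3 arrays added 0.01 and 0.04, with splits of 202 and 158 and of 335 and 169. The larger shift follows from the lower background level of the BM 2nd array, as the sorted values are nearly the same. Across all genes, background subtraction gave 618 higher and 511 lower in BM 2nd/P, 600 and 567 in BM 1st/P (212 and 186 as reported) and 808 and 622 in BM 2nd/BM 1st. The mean of all probes gave 109 and 101, 137 and 108, and 192 and 126, and a threshold of 1.5 gave 78 and 35, 95 and 59, and 136 and 43. For the genes of the 6 synthesis and partner lists in BM 2nd/P, the shares of all genes higher and lower are given in brackets. With the background subtracted 12 of 61 compared were higher and 3 lower (5.83% and 4.82%). With the mean of all probes 2 of 54 were higher and 0 lower (1.15% and 1.07%). At a threshold of 0.5 it was 11 and 2 of 61 (9.03% and 8.37%), and at 1.5 it was 1 and 0 of 61 (0.74% and 0.33%). Under the centring of each array, signs turned for Gpc1 (0.10) and Has2 (0.05) in BM 2nd/P and for Sdc3 (0.02) and Has2 (0.15) in BM 2nd/BM 1st. Under the other centring only Has2 in BM 2nd/BM 1st turned, to 0.03. Averaging the probes above background turned Sdc1 in BM 1st/P to -0.03 and Vcan in BM 2nd/BM 1st to -0.11. No paired analysis was possible because there is 1 array per cell line, and for the same reason no array could be left out. Near background, signal limits what can be seen of Vcan, Sdc3 and Has2, and of Acan and Srgn nothing is measured beyond an intensity under the background level.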
